A study of Homo sapiens with 4 samples.

Results

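The 9 genes examined here belong to the NRF2 pathway, the main transcriptional response of human cells to oxidative and electrophilic stress. They were listed by name, with earlier results of these data known, out of 60279 genes in the count tables. They are NFE2L2, KEAP1, HMOX1, NQO1, TXNRD1, GCLC, GCLM, OSGIN1 and SRXN1. Their levels were measured by RNA sequencing in the established cell line SUM159, which derives from triple-negative breast cancer (TNBC). Of the 4 libraries, 1 came from untreated cells, 1 from cells given palbociclib, 1 from cells given indisulam and 1 from cells given both (the combination). Palbociclib blocks CDK4 and CDK6, kinases that drive entry into the cell cycle, and indisulam acts as a molecular glue between RBM39, a splicing factor, and the ligase receptor DCAF15, so that RBM39 is degraded. All 4 cultures were of the same line, in medium with serum, insulin and hydrocortisone. The sample labels give 0.5 µM palbociclib and 2 µM indisulam for 10 days, whereas the text on the series gives 2 µM and 3 µM for 16 h in technical duplicates. The paper describes RNA sequencing of SUM159 cells at each of these settings, in separate experiments. For the 16 h experiment it names another aligner than the submitters' processing notes do. The labels and the series text still disagree, so the dose and the duration are not settled. Whether duplicates were pooled was not stated. With 1 library per condition there was no replicate check of any difference, and no p-value was computed.

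NFE2L2 encodes NRF2, a transcription factor of the basic leucine zipper family. In unstressed cells the adaptor KEAP1 binds NRF2 and presents it to the cullin ligase CUL3, and NRF2 is degraded by the proteasome. Electrophiles and oxidants modify cysteines of KEAP1, NRF2 escapes degradation, pairs with a small MAF protein and binds antioxidant response elements. NRF2 activity is thus set largely at the level of protein, which read counts do not measure. BACH1 binds the same elements as a repressor, and HMOX1 is the best known gene under its control.

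The depth was 12555908 to 16712174 reads in genes per library. A count of 3, taken as the floor, was 0.180 to 0.239 CPM (the read count of a gene relative to all reads in genes, in the usual unit). VIM, a mesenchymal marker, was at 2643 to 4598 CPM and CD44 at 706 to 883 CPM. The hormone receptor genes ESR1 and PGR were at or below 1.11 CPM in every library, EPCAM was at or below 1.12 CPM, and ERBB2 was at 110 to 143 CPM. Genes often used as markers of other cell types were not absent: PTPRC (leukocytes) was at 11.1 to 17.5 CPM, PECAM1 (endothelium) at 15.2 to 40.9 CPM, and COL1A1 (fibroblasts) at 1246 to 2806.5 CPM. DCN, also a fibroblast gene, was at 233 CPM untreated and 551 CPM with palbociclib, but at 1681 CPM with indisulam and 1841 CPM in the combination. What part this had in the values of the NRF2 genes was not tested. In bulk RNA, fewer cells that express a gene and less RNA per cell cannot be told apart.

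Of the 9 genes, 8 had a mean of at least 1 CPM and were compared between libraries. Counts were scaled to equal library totals, 1 scaled count was added, and log2 ratios were taken. Each ratio has a 95% interval that reflects Poisson counting error. A gene was called higher or lower when the ratio was at least 2-fold and the interval excluded a ratio of 1. The 2 × 2 layout gave a rough gauge of noise. If the drugs acted additively, the combination would equal the sum of the single-drug log2 ratios. The spread of the departure from that sum over genes of similar level, divided by the square root of 2, serves here as an upper bound for the noise in 1 log2 ratio (called the bound below). The spread is a median absolute deviation on the scale of 1 standard deviation. The bound thus describes a typical gene, and noise alone can carry a single ratio past it. The bound was 0.28 at 100 CPM or more, 0.26 from 20 to 100 CPM and 0.37 from 5 to 20 CPM.

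Since antioxidant response elements define the pathway, the promoters were searched for the core TGACNNNGC and for a longer form, the core followed by A, on both strands, from 250 bases before to 50 after each RefSeq start (GRCh38.p14). Windows were found for 8 of the 9 genes, 11 windows in all. HMOX1 had no entry. The core was present in 4 of 11 windows, in GCLM, KEAP1 and TXNRD1, against 13.3% of all 35116 windows. The longer form was in 3 of 11 windows, 1 in each of the same 3 genes, against 3.18% of all windows. The stretches are shown because GCLM, TXNRD1 and KEAP1 are the 3 genes with a match, 2 of them targets and 1 the inhibitor of NRF2. Sequences run 5′ to 3′ along the gene, and capitals mark the match. GCLM and the first start of TXNRD1 are given with the bases upstream, and the second starts of TXNRD1 and KEAP1 with the 30 bases around the longer form. The same KEAP1 window held another core outside those 30 bases, TGACACGGC, 54 to 46 bases before the start and on the strand of the gene.
GCLM, chr1:93909456-93909680, minus strand: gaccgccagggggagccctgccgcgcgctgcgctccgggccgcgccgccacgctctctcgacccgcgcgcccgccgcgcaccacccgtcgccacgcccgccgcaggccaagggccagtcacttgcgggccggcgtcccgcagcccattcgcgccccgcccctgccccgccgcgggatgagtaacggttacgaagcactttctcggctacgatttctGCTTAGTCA
TXNRD1, chr12:104215529-104215779, plus strand: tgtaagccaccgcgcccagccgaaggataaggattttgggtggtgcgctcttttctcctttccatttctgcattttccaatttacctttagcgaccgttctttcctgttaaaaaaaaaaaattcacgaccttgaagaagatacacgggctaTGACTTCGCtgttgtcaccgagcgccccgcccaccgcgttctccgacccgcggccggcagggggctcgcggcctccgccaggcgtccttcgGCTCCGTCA
TXNRD1 second start, chr12:104286919-104286948, plus strand: agtggatttcTGCTTTGTCAttctgactct
KEAP1 second start, chr19:10502784-10502813, minus strand: cgcccggctcTGCTTAGTCAtggtgacctg
The core in GCLM lay 34 to 26 bases before the RefSeq start and read on the strand opposite to the gene. Its last base is the first exonic base of GCLM in GENCODE, where the gene begins further upstream. The second core printed for the first start of TXNRD1 also ends on the first base of its gene. GCLM and KEAP1 shared the same 10 letters, TGCTTAGTCA. In KEAP1 these letters lay 32 to 23 bases before the second start and inside an exon. In TXNRD1 the match was TGCTTTGTCA, 103 to 94 bases before the second start and inside an exon of a longer transcript. NQO1, GCLC, OSGIN1, NFE2L2 and SRXN1 had no core in these windows, which says nothing of elements further away. OSGIN1 held an AP-1 site, TGACTCA, 97 bases before its start. That motif was in 4.95% of all windows, and where its letters are followed by GC it also counts as a core.

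The regulators were read first. NFE2L2 (ENSG00000116044, chromosome 2, 177218667 to 177392756, minus strand) was at 206 CPM untreated, 173.5 CPM with palbociclib, 181 CPM with indisulam and 158.5 CPM in the combination. The untreated library was the highest and the combination the lowest, and the whole range was 1.30-fold. Relative to untreated, palbociclib gave a log2 ratio of -0.25 (-0.33 to -0.17), indisulam one of -0.19 (-0.26 to -0.11), and the combination one of -0.38 (-0.46 to -0.30). The values of the single drugs were smaller than the bound of 0.28, the combination was 1.35 times it, and none of the 3 was called. Of the exonic bases of NFE2L2, 13.6% are shared with a noncoding gene on the same strand and 24.8% with genes on the opposite strand, among them HNRNPA3. KEAP1 (ENSG00000079999, chromosome 19, 10486125 to 10503558, minus strand) was at 72.4 CPM untreated, 74.9 CPM with palbociclib, 56.0 CPM with indisulam and 58.6 CPM in the combination. Both libraries with indisulam lay below both without it, and the counting intervals did not overlap. Indisulam alone gave a log2 ratio of -0.37 (-0.50 to -0.24) to untreated, and indisulam on top of palbociclib one of -0.35 (-0.49 to -0.22) to palbociclib, 1.41 and 1.35 times the bound of 0.26. For palbociclib the interval of the KEAP1 ratio included 0, at 0.05 (-0.08 to 0.18) without indisulam and 0.07 (-0.07 to 0.20) with it.

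**Figure D1:**
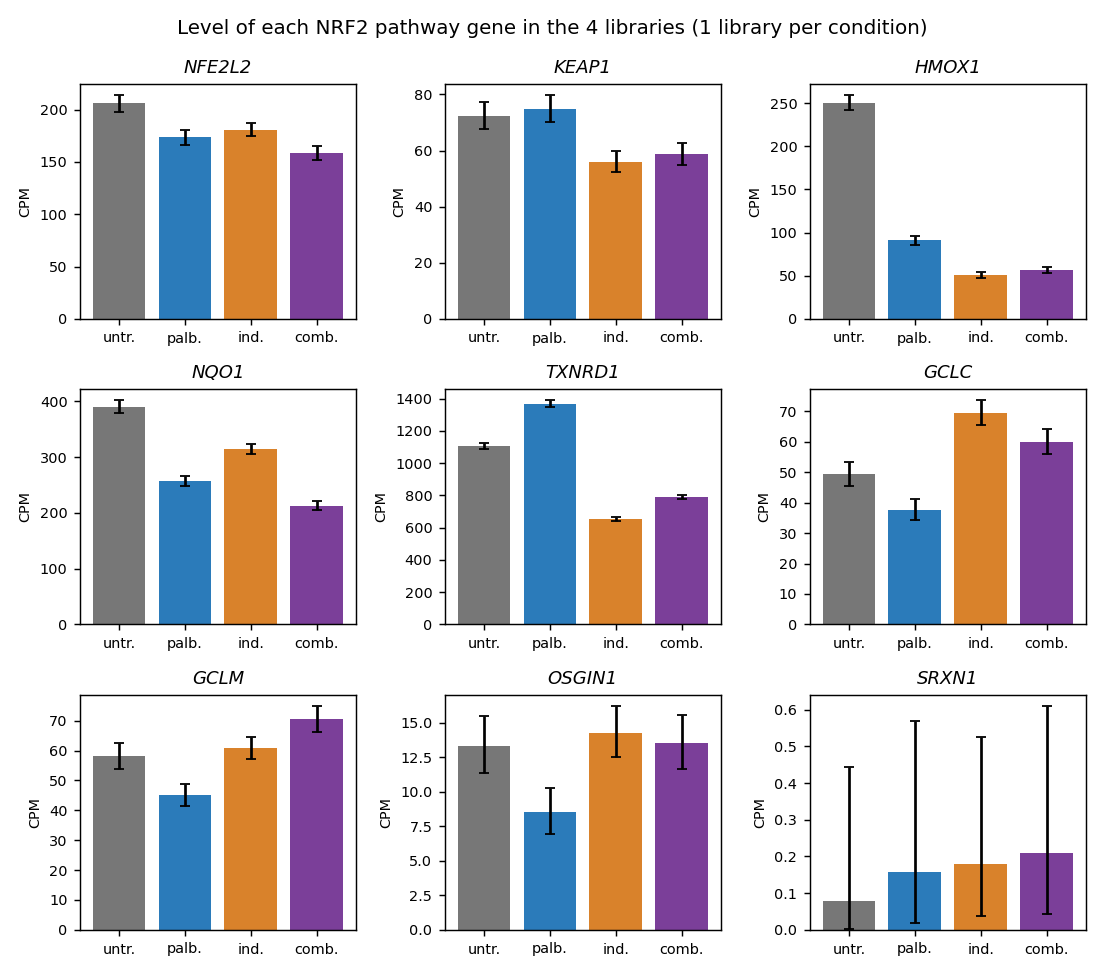
Level of the 9 NRF2 pathway genes in CPM (y axis, each panel from 0 with its own scale) in the untreated, palbociclib, indisulam and combination libraries, with 1 library per bar and 95% Poisson counting intervals as error bars. HMOX1 stood at 250.7 CPM untreated and at 50.8 to 90.9 CPM in the treated libraries, while SRXN1 had 1 to 3 reads in each library.

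Against untreated, HMOX1 was the only one of the 8 genes that passed the 2-fold threshold. It encodes heme oxygenase 1, which breaks heme down to biliverdin, iron and carbon monoxide (ENSG00000100292, chromosome 22, 35380361 to 35394214, plus strand). The untreated library held 3148 reads of HMOX1, the palbociclib library 1154, the indisulam library 849 and the combination 813. These correspond to 250.7, 90.9, 50.8 and 56.6 CPM, so that every treated library was below the untreated one. Palbociclib had a log2 ratio to untreated of -1.46 (-1.56 to -1.37), indisulam had -2.30 (-2.41 to -2.19) and the combination had -2.15 (-2.26 to -2.03), or 2.76-fold, 4.93-fold and 4.42-fold lower. These sizes were 5.22, 8.22 and 7.66 times the bound on noise. Among all 14269 tested genes, only 2.01%, 0.799% and 1.91% had a lower ratio in the same comparisons. The combination was 1.61-fold lower than palbociclib alone, with a log2 ratio of -0.68 (-0.81 to -0.55), and close to indisulam alone, at 0.16 (0.02 to 0.29), which was inside the bound.

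NQO1 encodes a quinone reductase that uses NADPH or NADH and is the usual readout of NRF2 activity (ENSG00000181019, chromosome 16, 69706996 to 69726668, minus strand). It had 390.5 CPM untreated, 258 CPM with palbociclib, 314 CPM with indisulam and 213 CPM in the combination. The untreated library was again the highest, and the combination was the lowest. Palbociclib alone gave a log2 ratio to untreated of -0.60 (-0.66 to -0.54) and indisulam alone of -0.31 (-0.37 to -0.26), and both drugs together gave -0.87 (-0.94 to -0.81). The last value was 1.83-fold lower and 3.12 times the bound, but short of the 2-fold threshold. Unlike HMOX1, NQO1 was lower by a like amount when palbociclib was added to indisulam, at -0.56 (-0.63 to -0.50). Its departure from additivity was 0.04 (-0.05 to 0.13). A noncoding gene on the opposite strand covers 19.4% of its exonic bases.

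TXNRD1 encodes cytosolic thioredoxin reductase, a selenoprotein that keeps thioredoxin reduced (ENSG00000198431, chromosome 12, 104215779 to 104350307, plus strand). It had the most reads of the 9 genes, at 1105 CPM untreated, 1370 CPM with palbociclib, 655 CPM with indisulam and 790 CPM in the combination. Palbociclib gave the highest value and indisulam the lowest, 2.09-fold apart, and the libraries did not overlap in their counting intervals. The single drugs were not among the pairs compared for calls. For indisulam the log2 ratio was -0.75 (-0.79 to -0.72) without palbociclib and -0.79 (-0.83 to -0.76) in its presence, 2.69 and 2.83 times the bound. For palbociclib the ratios had the opposite sign, at 0.31 (0.28 to 0.34) alone and 0.27 (0.23 to 0.31) with indisulam, which were close to the bound. TXNRD1 and HMOX1 thus lay on the same side of untreated with indisulam and on opposite sides with palbociclib.

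Glutamate-cysteine ligase, the enzyme that makes the precursor of glutathione, has a catalytic subunit encoded by GCLC and a modifier subunit encoded by GCLM. GCLC (ENSG00000001084, chromosome 6, 53497341 to 53616970, minus strand) was at 49.3 CPM untreated, 37.7 CPM with palbociclib, 69.5 CPM with indisulam and 60.1 CPM in the combination. GCLM (ENSG00000023909, chromosome 1, 93885199 to 93909456, minus strand) was at 58.1 CPM untreated, 45.0 CPM with palbociclib, 60.7 CPM with indisulam and 70.5 CPM in the combination. Both genes were lowest with palbociclib, and for both the 2 libraries with indisulam were above the palbociclib library. The log2 ratio of the combination to palbociclib was 0.67 (0.51 to 0.83) for GCLC and 0.65 (0.50 to 0.79) for GCLM, 2.57 and 2.47 times the bound. Against untreated, indisulam alone gave 0.50 (0.35 to 0.64) for GCLC but 0.06 (-0.07 to 0.20) for GCLM, a value whose sign differs between scalings. The reads of GCLC per read of GCLM, which no scaling affects, were 0.849 untreated, 0.837 with palbociclib and 0.853 in the combination, and 1.145 with indisulam. Only the indisulam library had more reads of GCLC than of GCLM, and the combination, which also held indisulam, was near untreated. No interval was computed for this ratio, which rests on 1 library per condition. Another gene on the same strand shares 6.14% of the exonic bases of GCLC.

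OSGIN1 encodes an oxidative stress induced growth inhibitor (ENSG00000140961, chromosome 16, 83931311 to 83966332, plus strand). The reads numbered 167 untreated, 108 (palbociclib), 239 (indisulam) and 194 (combination), or 13.3, 8.51, 14.3 and 13.5 CPM. The palbociclib library was the lowest and the other libraries overlapped in their counting intervals. The log2 ratio was -0.64 (-0.99 to -0.29) from untreated to palbociclib and 0.66 (0.33 to 1.00) from palbociclib to the combination. In the combination against untreated it was 0.02 (-0.27 to 0.32), and its sign differed between scalings. MLYCD on the same strand shares 8.22% of its exonic bases.

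SRXN1 encodes sulfiredoxin, which repairs overoxidized peroxiredoxins (ENSG00000271303, chromosome 20, 646615 to 653200, minus strand). Of SRXN1 there was 1 read untreated, there were 2 (palbociclib), 3 (indisulam) and 3 (combination), none of them above the floor, so no fold is given. In GENCODE, 2292 of its 2528 exonic bases (90.7%) are shared with ENSG00000270299, a second gene on the same strand that had 0 reads in every library. The deposited tables tally reads that fall in more than 1 gene apart from the genes. These counts can therefore not be read as the level of SRXN1.

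Per kilobase of the canonical transcript, the order of levels in the untreated library was TXNRD1 (286 CPM per kb), HMOX1 (161), NQO1 (155), NFE2L2 (84.2), KEAP1 (28.2), GCLC (13.0), GCLM (11.9) and OSGIN1 (6.92). HMOX1 and NQO1 overlapped in their counting intervals, as did GCLC and GCLM. With indisulam HMOX1 was at 32.7 CPM per kb, below NQO1 (125) and NFE2L2 (73.9) and above KEAP1 (21.8). The reads of the 6 measured targets summed to 1867 CPM untreated, 1809.5 CPM with palbociclib, 1165 CPM with indisulam and 1204 CPM in the combination. TXNRD1 dominated these sums. Without it the other 5 targets summed to 762 CPM untreated, 439.7 CPM with palbociclib, 509.7 CPM with indisulam and 414 CPM in the combination, so that palbociclib lay near untreated or near the combination depending on TXNRD1.

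**Figure D2:**
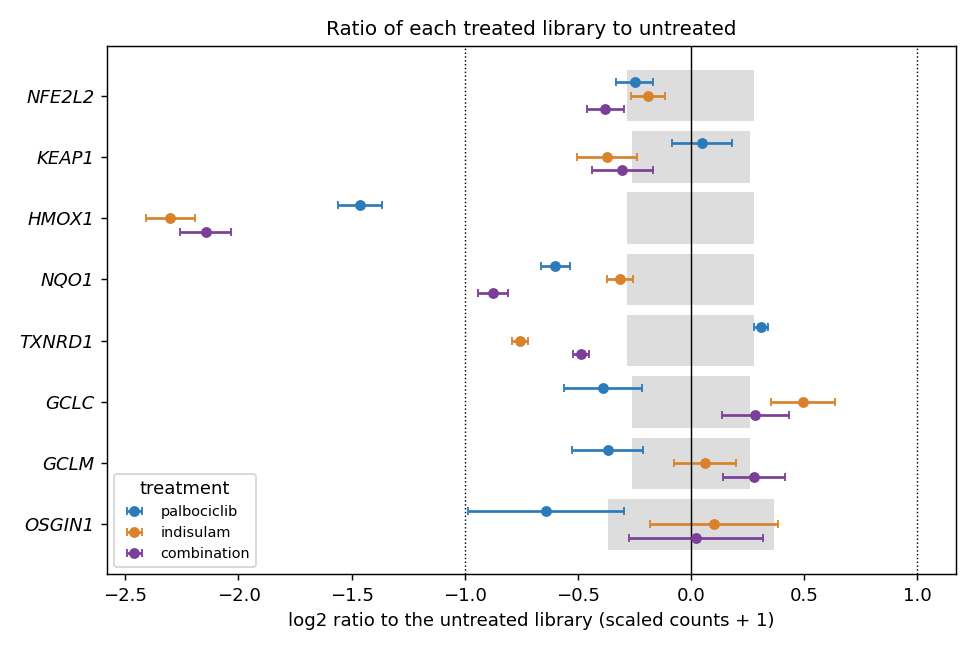
log2 ratio of each treated library to the untreated library (x axis) for the 8 compared genes, with 95% counting intervals. Grey bands show the upper bound on noise for a gene of that level and dotted lines mark 2-fold. HMOX1 is the only gene beyond the dotted lines, at -1.46, -2.30 and -2.15.

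In number, 1 of 8 genes (HMOX1) was called lower with palbociclib against untreated, where 4.98% of all tested genes were called lower. With indisulam 1 of 8 was called lower (6.72% of all tested genes), as was 1 of 8 in the combination (10.6%), HMOX1 in each case. None was called higher (6.06%, 8.49% and 13% of all tested genes). These comparisons share the untreated library. A single call makes 12.5% of the 8 genes, while 11%, 15.2% and 23.5% of all tested genes were called in either direction, so the share of the set was not above that of the transcriptome in the indisulam and combination comparisons and close to it for palbociclib. In the combination against palbociclib, 0 of 8 were called, beside 9.62% of all tested genes higher and 7.4% lower (17% in all). In the combination against indisulam, 0 of 8 were called, beside 5.09% higher and 3.2% lower (8.3% in all). The median log2 ratio of the 8 genes was -0.38 for palbociclib, -0.25 for indisulam and -0.34 for the combination, beside -0.02, 0.06 and 0.05 over all tested genes. The 8 compared genes therefore did not move as a block: within the combination against untreated, the ratios ran from -2.15 for HMOX1 to 0.29 for GCLC.

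Each drug was present in 2 libraries, which allowed its ratio to be read without and with the other drug in pairs that share no library. For indisulam the ratios had the same sign in 8 of 8 genes, although for GCLM and OSGIN1 the interval without palbociclib included 0, and with TMM, upper-quartile or DESeq2 factors the sign of GCLM differed. NQO1, TXNRD1, NFE2L2 and KEAP1 differed by at most 0.06 between the pairs, whereas GCLM and OSGIN1 were near 0 alone and at 0.65 and 0.66 in the presence of palbociclib. For palbociclib the sign was the same in 6 of 8 genes, HMOX1 and GCLM being the exceptions.

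**Figure D3:**
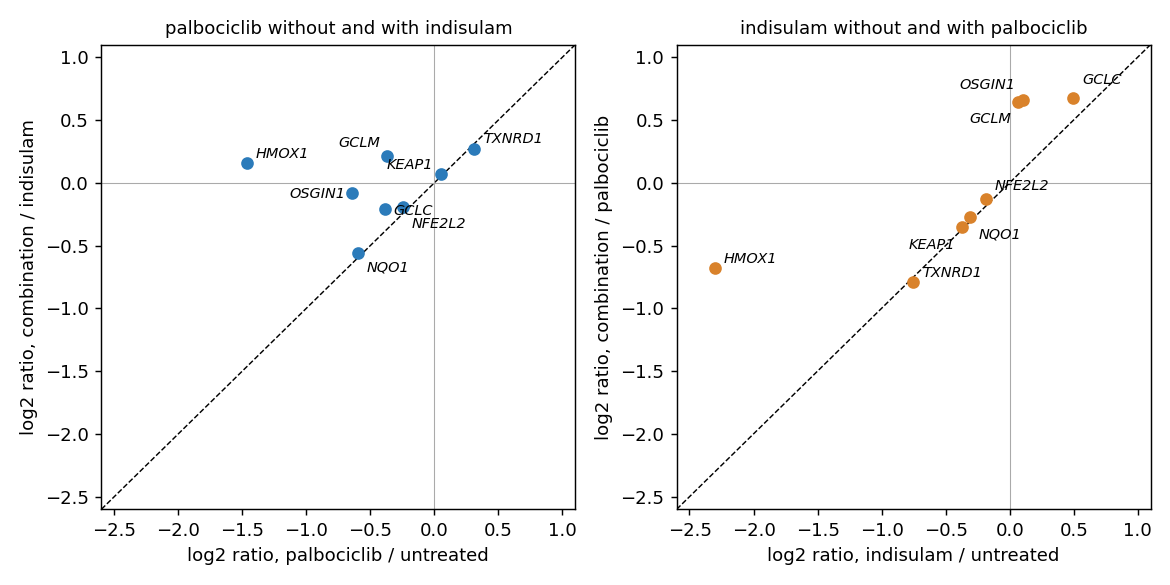
log2 ratio for palbociclib (left panel) and indisulam (right panel) without the other drug (x axis) and with it (y axis), 1 point per gene, with equality as the dashed line. HMOX1 lies far above the line in both panels, and NQO1, TXNRD1, NFE2L2 and KEAP1 lie on or near it.

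The departure from additivity was 1.62 (1.45 to 1.79) for HMOX1, a ratio 3.07-fold above the sum of the single drugs and higher than in 98.5% of tested genes. It was the only one of the 8 that was called, beside 4.16% of all tested genes above the sum and 3.97% below it (8.14% in all). The drugs alone sum to a lower HMOX1 level than the combination had. For GCLM the departure was 0.58 (0.38 to 0.78) and for OSGIN1 0.56 (0.12 to 1.00), both under 2-fold. For NQO1, TXNRD1, NFE2L2, KEAP1 and GCLC the counting interval of the departure included 0.

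The other genes of the pathway were taken from 8 lists by role, with 61 genes in all, of which 59 were compared. These lists, too, were drawn up with earlier results of these data known. SOD2 could not be matched to an identifier in the tables, and GPX2 had no reads. Palbociclib against untreated called 2 higher and 6 lower, indisulam 6 higher and 11 lower, and the combination 7 higher and 13 lower. Among those called higher in each comparison is SLC40A1, which passed the cutoff of 1 CPM only through its treated libraries. The share called was 13.6%, 28.8% and 33.9%, beside 11%, 15.2% and 23.5% of all tested genes. Against palbociclib the combination was called higher in 3 genes and lower in 9, which is 20.3% of them beside 17% of all tested genes. Against indisulam it was called higher in 1 gene and lower in 0, or 1.69% beside 8.3%.

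**Figure D4:**
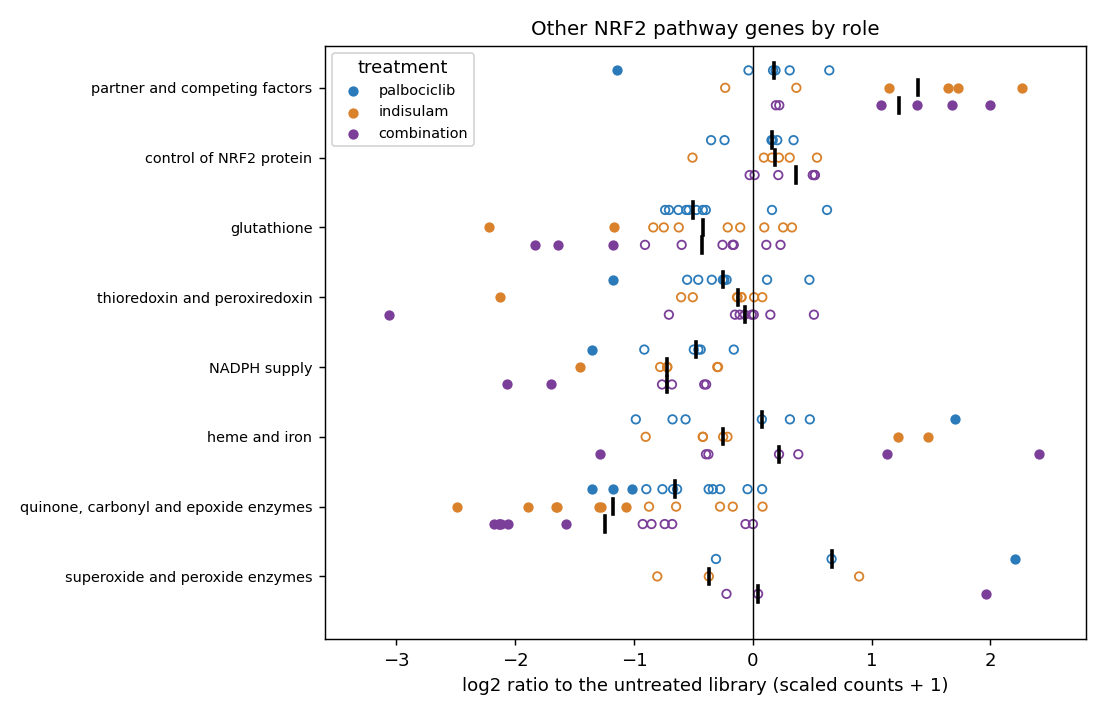
log2 ratio to untreated (x axis) of the 59 compared genes of the pathway by role (y axis), 1 point per gene and treatment. Filled points were called, open points were not, and black ticks are medians. By their medians, the partner and competing factors lie to the right with indisulam and in the combination (medians 1.39 and 1.23), and the quinone, carbonyl and epoxide enzymes to the left (medians -1.18 and -1.25).

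Of the partner and competing factors of NRF2, several were called higher where indisulam was present. Of 6 genes, 4 were called higher than untreated with indisulam, and 4 in the combination, namely BACH1, NFE2L3, MAFF and MAFK in both, with a median of 1.39 and 1.23. Of all tested genes, 8.49% and 13% were called higher. In the combination against palbociclib 3 of 6 were called higher, beside 9.62% of all tested genes, and MAFK was not, at 0.91 (0.76 to 1.06). BACH1, the repressor that competes with NRF2, had 13.8 CPM untreated, 17.1 CPM with palbociclib, 43.1 CPM with indisulam and 44.2 CPM in the combination. For indisulam the log2 ratio was 1.64 (1.40 to 1.88) without palbociclib and 1.36 (1.14 to 1.59) in its presence, while palbociclib added to indisulam gave 0.03 (-0.12 to 0.19). The reads of BACH1 per read of NFE2L2, which no scaling affects, were 0.0669 untreated, 0.0985 with palbociclib alone, 0.239 with indisulam alone and 0.279 with both. The libraries with the most BACH1 were those with the least HMOX1, and in the palbociclib library HMOX1 was 2.76-fold lower than untreated beside a BACH1 log2 ratio of 0.31 (0.02 to 0.60). Whether the 2 genes are linked was not tested. NFE2L3, a relative of NRF2, was at 20.1, 31.5, 66.7 and 80.6 CPM in the same order of libraries, and HNRNPA2B1 on the opposite strand shares 28.1% of its exonic bases. MAFF and MAFK encode small MAF proteins, the partners of both NRF2 and BACH1. MAFF was at 16.5 CPM untreated, 7.41 CPM with palbociclib, 79.5 CPM with indisulam and 43.0 CPM in the combination, so that palbociclib was called lower, at -1.15 (-1.50 to -0.80), and indisulam higher, at 2.26 (2.05 to 2.47). MAFK was called higher than untreated in the combination with 4 of 5 scalings, and 18.1% of its exonic bases are shared with TMEM184A on the opposite strand. MAFG and NFE2L1 were not called in any comparison.

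**Figure D5:**
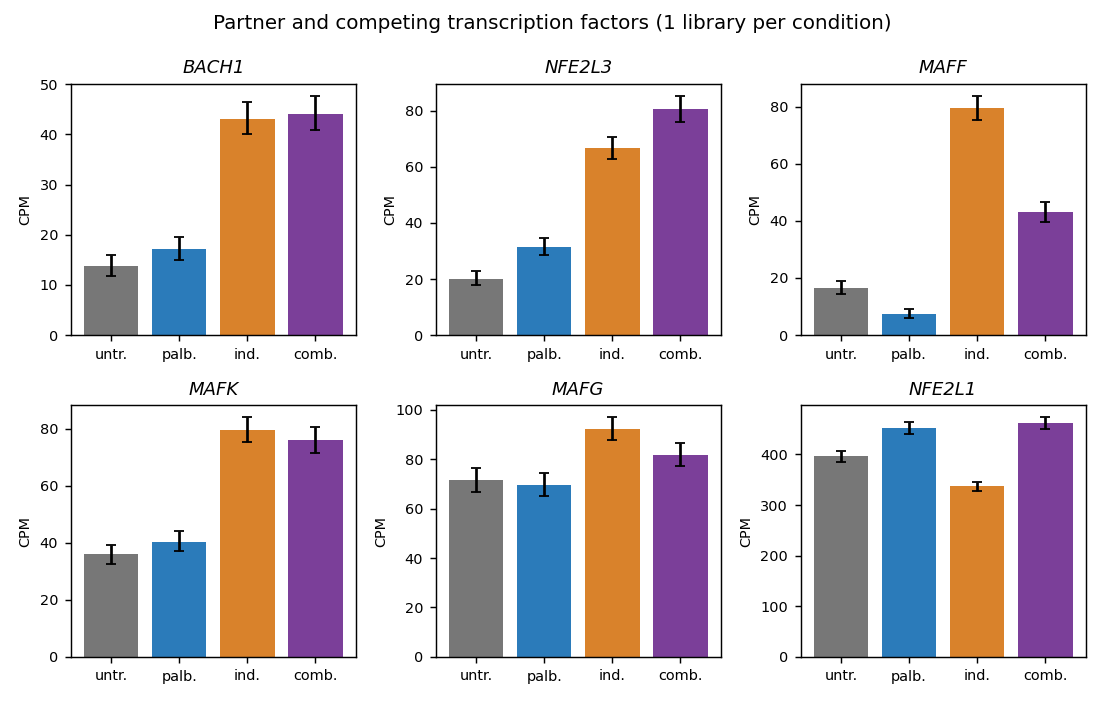
Level in CPM (y axis, each panel from 0 with its own scale) of the 6 partner and competing factors in the 4 libraries, with 95% Poisson counting intervals. BACH1, NFE2L3, MAFF and MAFK are higher in the libraries with indisulam than in those without it.

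Quinone, carbonyl and epoxide enzymes were the group with the most genes called lower. Of 12 compared, 3 (palbociclib), 7 (indisulam) and 6 (combination) were called lower than untreated, and none higher, beside 4.98%, 6.72% and 10.6% of all tested genes called lower. AKR1A1 was also called lower in the combination with 2 of 5 scalings. The median log2 ratio was -0.65, -1.18 and -1.25. EPHX1, microsomal epoxide hydrolase, was at 187 CPM untreated, 148 CPM with palbociclib, 33.3 CPM with indisulam and 41.4 CPM in the combination. PIR, an iron-binding nuclear protein, was at 135 CPM untreated, 66.9 CPM with palbociclib, 43.0 CPM with indisulam and 30.6 CPM in the combination, and its call with palbociclib held with 4 of 5 scalings. AKR1C1, an aldo-keto reductase, was at 170.1 CPM untreated, 75.1 CPM with palbociclib, 45.9 CPM with indisulam and 38.7 CPM in the combination. For AKR1C2 the combination had a log2 ratio to untreated of -2.12 (-2.30 to -1.94). AKR1C1 and AKR1C2 are near-identical copies, and reads that aligned to both were not counted for either, so their levels are uncertain.

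In the glutathione group, 10 of 11 genes were compared. None was called with palbociclib, 2 were called lower with indisulam and 3 in the combination. Of all tested genes, 4.98%, 6.72% and 10.6% were called lower in these comparisons. ABCC2, an exporter of glutathione conjugates, was at 320.5 CPM untreated, 220.5 CPM with palbociclib, 68.8 CPM with indisulam and 89.7 CPM in the combination. GSS encodes glutathione synthetase, which acts after the ligase of GCLC and GCLM, and it was at 66.6 CPM untreated, 49.7 CPM with palbociclib, 29.6 CPM with indisulam and 21.3 CPM in the combination. The ratio of GSS to untreated was -1.64 (-1.83 to -1.45) in the combination, where GCLC and GCLM had 0.29 and 0.28. GSR, glutathione reductase, was called lower in the combination at -1.18 (-1.30 to -1.06).

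NADPH supply feeds both the thioredoxin and the glutathione system. All 6 of its genes had ratios below 0 in each treated library against untreated. Of all tested genes, 51.7% (palbociclib), 45.4% (indisulam) and 47.1% (combination) had ratios below 0. The medians of the 6 genes were -0.48, -0.72 and -0.72, beside -0.02, 0.06 and 0.05 over all tested genes. TKT, transketolase, was at 1546 CPM untreated, 606.5 CPM with palbociclib, 938 CPM with indisulam and 477 CPM in the combination. TKT was called lower than untreated for palbociclib (-1.35, -1.39 to -1.31) and for the combination (-1.70, -1.74 to -1.66). In these comparisons 4.98% and 10.6% of all tested genes were called lower. The log2 ratio of TKT with indisulam was -0.72 (-0.75 to -0.69), which was not called.

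Of 9 thioredoxin and peroxiredoxin genes, TXNIP alone was called, lower in each treated library. That is 11.1% of the group against untreated, where 4.98% (palbociclib), 6.72% (indisulam) and 10.6% (combination) of all tested genes were called lower. In either direction 11%, 15.2% and 23.5% of all tested genes were called, so the share of the group was not above that of the transcriptome with indisulam or both drugs. TXNIP, an inhibitor of thioredoxin that also responds to glucose, had 3147 CPM untreated, 1390 CPM with palbociclib, 721 CPM with indisulam and 377 CPM in the combination. For the combination the log2 ratio to untreated was -3.06 (-3.10 to -3.02). The other 8 genes of the group lay between -0.71 and 0.51 there.

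Heme and iron genes were mixed. FTH1, the heavy chain of ferritin, was called higher with indisulam, at 8281 CPM against 3560 CPM untreated, a log2 ratio of 1.22 (1.20 to 1.23), and in the combination at 1.13 (1.11 to 1.15). It has copies elsewhere in the genome, and 63.2% of its exonic bases are shared with BEST1 on the opposite strand. SLC40A1, ferroportin, was called higher in each treated library, from 7 reads (0.56 CPM) untreated and 47 (3.27 CPM) in the combination. Its untreated level was below the cutoff of 1 CPM, so it was compared only because of its treated libraries. Its higher calls are therefore not independent of the filter, and the bound from 1 to 5 CPM was 0.62. BLVRB, a biliverdin reductase that acts after heme oxygenase, was called lower in the combination at -1.29 (-1.43 to -1.15). With palbociclib FTH1 had a log2 ratio of 0.31 (0.29 to 0.33), which was not called. FTH1 was thus above untreated in every treated library, and HMOX1 below it in every one. FTL, the light chain of ferritin, was below untreated in each, at -0.68 (palbociclib), -0.42 (indisulam) and -0.39 (combination), and was not called.

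Of the 3 compared superoxide and peroxide enzymes, SOD3 was called higher than untreated with palbociclib and in the combination. Of all tested genes, 6.06% and 13% were called higher there. SOD3, extracellular superoxide dismutase, had 40 reads untreated, 190 (palbociclib), 100 (indisulam) and 181 (combination), with a palbociclib log2 ratio of 2.21 (1.72 to 2.69). Of the 6 genes that control NRF2 protein (CUL3, RBX1, SQSTM1, BTRC, DPP3 and PGAM5), none was called in any comparison. Of all tested genes, 8.3% to 23.5% were called, depending on the comparison. The ratios of these 6 genes to untreated lay between -0.51 and 0.54.

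Genes with the pattern most like HMOX1 were sought among 8013 genes with a mean of at least 20 CPM, by the Euclidean distance between their 3 log2 ratios to untreated. The nearest were AKR1C1 (distance 0.50), NUP210 (0.55) and MIF4GD (0.59). The 3 ratios share the untreated library, and the order is a description only. AKR1C1 is also in the list of quinone, carbonyl and epoxide enzymes above.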

How the data were processed

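Poly(A) RNA of SUM159 cells was sequenced in strand-specific libraries, 1 library in each of 4 groups taken from the treatment label. The deposited values are raw counts of reads per Ensembl gene, made by the authors. The submitters' processing notes name TopHat2 2.1, HTSeq and GRCh38. The strand setting and the annotation release are not given in the sources used here. After the genes, each table holds tallies of reads outside genes, ambiguous between genes or aligned to several places, 9.61% to 10.1% of the reads listed, which were kept out of totals and ratios. The authors scaled by a relative total size factor, and the same was done here: counts were divided by the gene total (12555908 to 16712174) and multiplied by the mean total, and a pseudocount of 1 was added.

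Of 29056 genes with a read, 14269 had a mean of at least 1 CPM and were compared. Each log2 ratio has a 95% Poisson interval. Intervals and the floor of 3 counts hold counting error alone, and PCR copies could not be told apart because the reads carry no molecular identifiers. edgeR (4.0.16) and DESeq2 (1.42.0) were used for scaling factors only, as a count test needs replicates. Python 3.11.15 did the rest, and the calls were checked on simulated counts that held Poisson noise alone. Such a check cannot reach variation between cultures or libraries. Positions are from GENCODE release 44 (GRCh38) and promoters from RefSeq (GRCh38.p14), of which 8 of 9 genes matched. The genes, lists and tests were chosen with earlier results of these data known. In each role list, up to 4 genes called against untreated were named, by the size of the ratio of combination to untreated; 1 of these is not reported here. The alternatives were 4 other scalings, pseudocounts of 0.5 and 5, a filter at 5 CPM or none, and a 1.5-fold threshold.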

Additional observations from a re-analysis of the deposited data

Results flagged for a closer look

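For palbociclib, HMOX1 and GCLM had ratios of opposite sign without and with indisulam, with counting intervals that excluded 0 on both sides. For HMOX1 the log2 ratio for palbociclib was -1.46 without indisulam and 0.16 in its presence. For GCLM it was -0.37 and 0.21. With 1 library per condition the difference was not tested. The values of 0.16 for HMOX1 and 0.21 for GCLM were smaller than the upper bound on noise for genes of their level (0.28 and 0.26), so that the sign in the presence of indisulam is not firm.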

How the results depend on the processing

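HMOX1 was called lower than untreated in each treated library under every alternative tried, and no called ratio of the 8 genes changed sign. In 3 of 48 ratios the sign differed between scalings, all near 0. The median log2 ratio of the genes for indisulam against untreated was -0.32 with TMM, -0.32 with upper-quartile and -0.32 with DESeq2 factors, and -0.19 without a filter on low counts. For the combination against palbociclib it was -0.30 with TMM factors, -0.28 with DESeq2 factors and -0.13 without a filter, and for the combination against untreated -0.43 with TMM factors. No filter adds only SRXN1, which is under the floor.

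At 1.5-fold, 3 (palbociclib), 2 (indisulam) and 2 (combination) of the 8 genes were lower than untreated. In the combination against palbociclib, 3 were higher and 2 lower. Of all 14269 tested genes, 1758, 2045 and 2779 were lower than untreated at 1.5-fold, in the same order. In the combination against palbociclib, 2638 of them were higher and 2075 lower. Of the 59 other pathway genes, 1.5-fold gave 5 higher and 16 lower for palbociclib against untreated. It gave 22 lower for indisulam and 22 lower for the combination against untreated. In the combination against palbociclib 8 were higher, and against indisulam 4 were higher and 5 lower. Of all tested genes, 1831 were higher with palbociclib at 1.5-fold. In the combination against indisulam, 1733 of them were higher and 1466 lower. A filter at 5 CPM left 1 of the other pathway genes called higher with palbociclib, beside 439 of 11376 tested genes. TMM factors moved the median of all genes for the combination against palbociclib from 0.07 to -0.03. Every count and median printed here rests on 1 library per condition, and no library could be left out. No paired analysis was possible because each group has 1 sample.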
